A study of Mus musculus with 66 samples.

Results

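The clustered protocadherins are the 58 mouse genes whose symbols run from Pcdha1 to Pcdha12, Pcdhac1 and Pcdhac2, Pcdhb1 to Pcdhb22, and the Pcdhga, Pcdhgb and Pcdhgc names, and they were chosen by symbol alone from the 45706 gene identifiers measured. They comprise 14 genes of the alpha cluster, 22 of the beta cluster and 22 of the gamma cluster, in that order on chromosome 18 of GRCm38. By the RefSeq annotation the alpha genes lie between bases 36930285 and 37188897, the beta genes between 37264998 and 37521419, and the gamma genes between 37661775 and 37841873.

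Clustered protocadherins are cell surface adhesion proteins of neurons, and the set of isoforms a neuron carries lets its own branches recognise and avoid each other. Each alpha or gamma isoform starts at a promoter and variable exon of its own and is spliced to constant exons shared by the whole cluster, whereas each beta gene stands alone with a single large exon. Most of these promoters are chosen at random in single neurons, under control of CTCF, cohesin and DNA methylation. The C-type isoforms, Pcdhac1, Pcdhac2, Pcdhgc3, Pcdhgc4 and Pcdhgc5, differ in that they are used more regularly by cell type, with Pcdhac2 known from serotonergic neurons and Pcdhgc4 from the survival of interneurons.

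RNA of 66 libraries was sequenced from 20 groups of adult mice that differed in Rorb, the gene of the nuclear receptor RORβ, and in strain. Wild-type C57BL/6J and DBA/1J mice were compared with homozygous mutants of 5 spontaneous Rorb alleles: Rorb h1/h1 on C57BL/6J, Rorb h2/h2 and Rorb h3/h3 on B6(Cg)-Tyr c-2J/J, Rorb h4/h4 on B6.129S7-Il1r1 tm1Imx/J, and Rorb h5/h5 on DBA/1J. Brain hemi-sections and spinal cords came from the same 24 mice, aged 7.9 to 9.6 weeks, with 4 mice each for h2, h3 and h4 and 3 mice for each of the other 4 genotypes. Cortex, hippocampus and cerebellum came from 3 DBA/1J and 3 Rorb h5/h5 mice aged 7 weeks. The alleles are carried in every cell of the mouse: h1 is a duplication that takes in the start of the Rorb1 transcript, h4 is a premature stop in both Rorb transcripts, h5 changes the start codon of Rorb1, and for h2 and h3 no causal change was given. The strain-matched controls of h2, h3 and h4 were C57BL/6J mice, so that passenger differences of those stocks cannot be told apart from the Rorb allele.

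Total expected counts ranged from 32889755 to 59120536 per library, with a median of 42391893. Rorb was at 11.9 TPM (a level scaled for transcript length and sequencing depth) in C57BL/6J brain, 7.57 TPM in h1, 6.19 TPM in h2, 11.4 TPM in h3 and 3.07 TPM in h4. It was at 12.2 TPM in DBA/1J brain and 16.7 TPM in h5. By edgeR's quasi-likelihood test with Benjamini-Hochberg adjustment Rorb was lower in brain in h2 and h4 (adjusted p of 0.000185 and 2.35e-06) and not called in h1, h3 or h5 (adjusted p of 0.0838, 0.846 and 0.392). The paper, using DESeq2 and qRT-PCR, reports a change of Rorb in brain for every allele except h3, with h5 raised and the others reduced. Several libraries departed from their labels or from their group. The DBA/1J brain replicate 1 had 76.5 TPM summed over 5 cerebellar genes (Pcp2, Gabra6, Cbln1, Cbln3 and Calb1) and 0.4 TPM of the Purkinje cell gene Pcp2, against 344.3 to 747.2 TPM and 98.9 to 253.4 TPM in the other 23 brain hemi-sections. The cortex, hippocampus and cerebellum of h5 replicate 3 were labelled female but had 57.8 to 86.2 CPM (counts scaled to library size) of the Y-linked gene Ddx3y, against 57.9 to 105 in the 28 libraries labelled male. Cortex of DBA/1J replicate 1 was the lowest of its 3 libraries for 48 of the 58 members. Spinal cords were marked by 5 Hox genes, at 224.7 to 246.1 TPM summed in the wild-type cords and at most 6.68 TPM in the wild-type brains, and the cortical gene Tbr1 was at 62.5 to 81.8 TPM in cortex and 0.22 to 0.54 TPM in cerebellum.

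The shared constant exons set how well an isoform could be read. Transcript lengths and shared bases given here come from a later annotation than the one the reads were quantified on. In the longest transcript of Pcdha5, an alpha gene with 1 annotated transcript, 2860 of 5206 bases were shared with other alpha genes, and in Pcdhga5 2207 of 4752 bases were shared with other gamma genes. Beta transcripts shared no bases with other members except Pcdhb21 and Pcdhb22, which shared 455. The expected counts, which divide a read that fits several transcripts among them, were not whole numbers for 98.6% of alpha and 98.7% of gamma values, for 26.2% of beta values, and for 10.6% of the values above 0 of all genes (tolerance 0.005). Alpha and gamma levels therefore rest more on the division of shared reads than beta levels do, which the spread between replicates does not measure. The coefficient of variation of TPM between replicates had a median of 14.4% for alpha, 11.9% for beta and 9.82% for gamma members. All libraries are bulk tissue, in which fewer cells of a type and less RNA per cell cannot be told apart.

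In every tissue a few C-type isoforms carried much of the protocadherin RNA. Over the 24 brain hemi-sections the highest levels were those of Pcdhgc4 at 85.6 TPM, Pcdhgc3 at 58.9 TPM and Pcdhgc5 at 58.5 TPM. The weighted length of Pcdhgc4 in brain, 2489 to 2682 bases, lay near that of a transcript of 2370 bases, of which 2207 are shared. Its other transcripts have 3100 and 5324 bases, so its level there rests largely on the division of shared reads. The range of Pcdhgc4 (70.5 to 100.5 TPM) lay above that of Pcdhgc3 (39.8 to 67.9 TPM) and overlapped at its lower end with that of Pcdhgc5 (41.8 to 71.8 TPM). Pcdhgc3 and Pcdhgc5 had means of 64.1 and 57.3 TPM in C57BL/6J and 45.2 and 55.4 TPM in DBA/1J. In C57BL/6J the order was not constant, at 66.17 and 41.75, 67.44 and 67.3, and 58.73 and 62.84 TPM in replicates 1 to 3. In DBA/1J Pcdhgc5 was the higher in each library. Next came Pcdhac2 at 22.7 TPM, the highest of the alpha cluster, followed within that cluster by Pcdha12 at 6.11 TPM and Pcdha4 at 5.70 TPM. The beta cluster was led by Pcdhb17 at 7.91 TPM, Pcdhb20 at 7.43 TPM and Pcdhb9 at 6.62 TPM, whose ranges overlapped. At the bottom stood Pcdhb1 at 0.186 TPM, Pcdha8 at 0.710 TPM and, in the gamma cluster, Pcdhgb8 at 1.91 TPM. These same genes were the lowest of their cluster in all 5 tissues.

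The leading gamma isoform changed with the tissue. Over all libraries of a tissue, Pcdhgc4 led in brain, in spinal cord (51.3 TPM) and, level with Pcdhgc5, in hippocampus (84.7 and 84.5 TPM). In cortex Pcdhgc5 and Pcdhgc4 overlapped, with means of 92.6 and 99.1 TPM in wild type and 117.6 and 92.7 TPM in h5. The wild-type order of the means came from replicate 1 (74.03 and 111.3 TPM). In wild-type replicates 2 and 3 Pcdhgc5 was the higher (102.9 against 91.97 and 100.9 against 94.05 TPM), as in every h5 cortex. Pcdhgc3 was highest in cerebellum at 133 TPM, above Pcdhgc4 at 63.5 TPM with no overlap. Members outside the C-types took a place among the first 3 of the gamma cluster only in spinal cord, with Pcdhga11 at 11.7 TPM, and in cerebellum, with Pcdhgb2 at 17.7 TPM. In those tissues Pcdhgc5 fell out of the first 3. Across the 58 members the order of mean levels was similar between tissues, as a description of members measured in shared libraries. Spearman rho ran from 0.853 (cerebellum with cortex and with hippocampus) to 0.96 (brain and cortex). Within clusters rho ran from 0.886 to 0.992 over the 22 gamma members, from 0.596 (hippocampus and cerebellum) to 0.938 over the 22 beta members, and from 0.64 (brain and cerebellum) to 0.921 over the 14 alpha members.

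**Figure D1:**
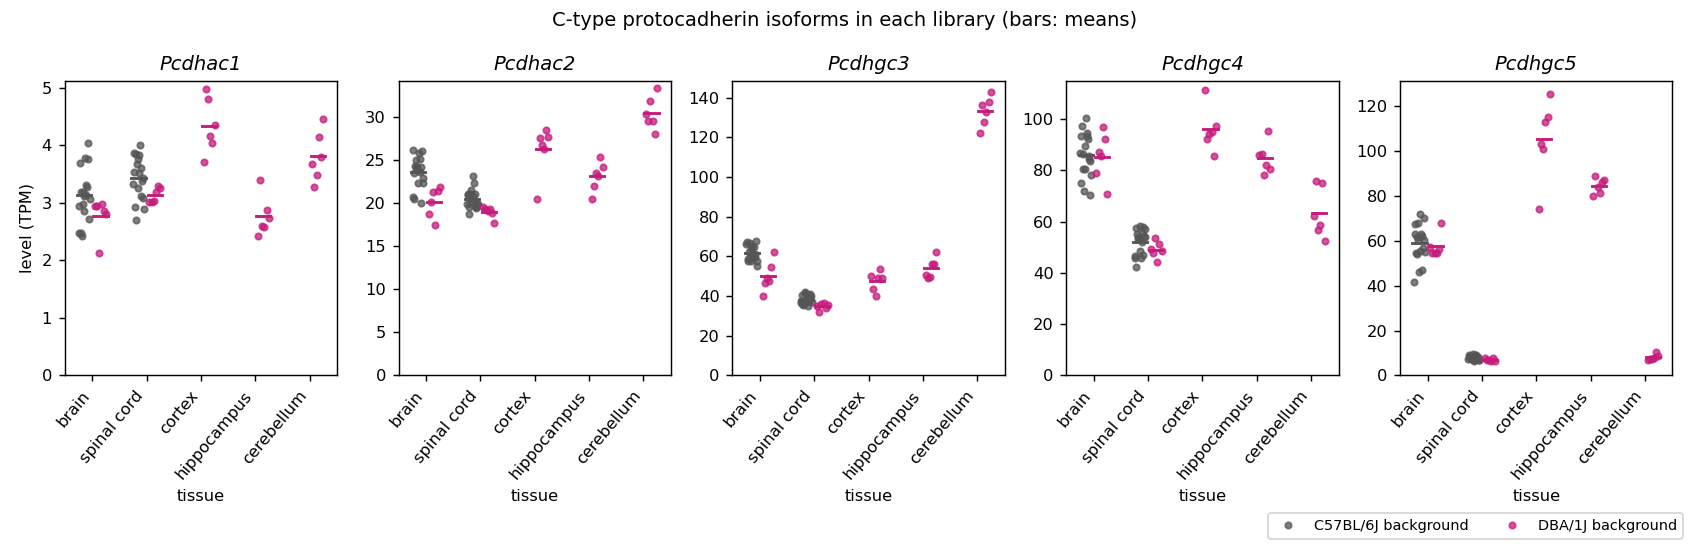
Level (TPM) of each C-type isoform in every library by tissue, grey for the C57BL/6J background and magenta for the DBA/1J background, with the mean of each background as a bar. Pcdhgc5 lies between 74.03 and 125.1 TPM in cortex and between 6.25 and 9.37 TPM in spinal cord, and Pcdhgc3 reaches 142.9 TPM in cerebellum.

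The gamma cluster held the largest share of the summed TPM of all members in every tissue. In C57BL/6J brain the sum was 514.5 ± 45.3 TPM (SD, n = 3), of which 69.1% was gamma, 18.1% beta and 12.8% alpha. In C57BL/6J spinal cord the sum was 332.2 ± 8.06 TPM (SD, n = 3), of which 59.9% was gamma, 22.6% beta and 17.5% alpha. The gamma share was lower in spinal cord than in brain in 24 of 24 mice. In DBA/1J mice gamma held 71.6% in hippocampus, 68.9% in cortex, 68.5% in cerebellum, 66.8% in brain and 59.5% in spinal cord.

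Within the gamma cluster the C-type isoforms made up 58.0% ± 0.235 (SD, n = 3) of the TPM in C57BL/6J brain and 46.0% ± 0.312 in spinal cord. The figures were 62.9% and 49.6% in DBA/1J mice, and 68.9% in cortex, 64.3% in hippocampus and 55.4% in cerebellum. The share was lower in spinal cord than brain in all 24 mice and lower in cerebellum than cortex in all 6 mice with both regions. Pcdhgc4 has a short transcript of 2370 bases of which 2207 are shared, and its weighted length in the files moved between 2389 and 3134 bases. With Pcdhgc4 left out, the DBA/1J share was 56.3% in cortex, 52.6% in hippocampus, 48.1% in brain, 45.7% in cerebellum and 30.9% in spinal cord. In the alpha cluster Pcdhac1 and Pcdhac2 together held 40.1% in C57BL/6J brain, 41.5% in spinal cord and 50.3% in DBA/1J cerebellum, where the share was higher than in cortex in 6 of 6 mice.

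Spinal cord was compared with brain within each wild-type strain, from the same 3 mice per strain. Of the 58 members 34 were called lower in C57BL/6J cord, where 28.5% of all genes tested were lower and 28.3% higher, and 25 in DBA/1J cord, where 25.6% were lower and 25.3% higher. None was called higher in either strain, but Pcdhac1 was in C57BL/6J with the mouse as a block (adjusted p = 0.0377) or without brain replicate 3 (adjusted p = 0.00295). Pcdhgc5 stood apart in both strains. In C57BL/6J it was at 41.8, 67.3 and 62.8 TPM in brain and at 7.29, 9.09 and 8.84 TPM in spinal cord. The DBA/1J values were 57.2, 54.5 and 54.6 TPM in brain and 7.97, 7.04 and 6.99 TPM in cord. No cord value came near a brain value in either strain, and the log2 fold change was -2.47 (SE 0.12, adjusted p = 8.87e-10) in C57BL/6J and -2.61 (SE 0.07, adjusted p = 5.88e-09) in DBA/1J. These and all adjusted p-values below come from edgeR's quasi-likelihood test with Benjamini-Hochberg adjustment over all genes tested, and a member was called at an adjusted p below 0.05. The log2 fold change is of normalised counts, so it need not equal the ratio of TPM values. For Pcdhgc5 the weighted length in the files had a median of 3883 bases in brain and 4539 bases in cord, which enters the TPM ratio.

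The 34 members lower in C57BL/6J were 5 alpha, 10 beta and 19 gamma members. Those lower in DBA/1J were 3 alpha, 11 beta and 11 gamma members. The median log2 fold change of the members was -0.33 in C57BL/6J and -0.32 in DBA/1J, and that of all genes was -0.00 and 0.00. No member was higher at an unadjusted p below 0.05 in either strain, nor called higher by DESeq2. Leaving out the DBA/1J brain without cerebellar genes gave 28 calls in place of 25.

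Pcdhgc3 was at 66.2, 67.4 and 58.7 TPM in C57BL/6J brain and at 36.6, 37.3 and 40.7 TPM in cord, a log2 fold change of -0.72 (SE 0.06, adjusted p = 1.97e-07). In DBA/1J its change was -0.43 (SE 0.07, adjusted p = 0.00094), and -0.51 without the brain that lacked cerebellar genes. Pcdhgc4 was at 86.7, 93.1 and 75.2 TPM in C57BL/6J brain and 45.7, 46.4 and 42.4 TPM in cord. The groups did not overlap for either gene. The change of Pcdhgc4 was -0.62 (SE 0.07, adjusted p = 2.54e-06) in C57BL/6J and -0.55 (SE 0.05, adjusted p = 7.56e-06) in DBA/1J.

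The alpha C-types moved little. Pcdhac2 went from 23.4 to 20.6 TPM in C57BL/6J, called at a log2 fold change of -0.16 (adjusted p = 0.0289) that was lost on leaving out brain replicate 2 or any cord replicate (adjusted p from 0.0597 to 0.126), and its DBA/1J value of -0.09 was not called (adjusted p = 0.294). Pcdhac1 was at 3.04 TPM in C57BL/6J brain and 3.58 TPM in cord, with a log2 fold change of 0.25 (adjusted p = 0.103) that passed at 0.27 when the mouse was a block (adjusted p = 0.0377) and at 0.42 without brain replicate 3 (adjusted p = 0.00295). Its DBA/1J value was 0.15 (adjusted p = 0.397).

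Among the variable members Pcdhga12 had the smallest adjusted p in both strains. It was at 10.6 ± 1.39 TPM in C57BL/6J brain and 5.55 ± 0.832 TPM in cord (SD, n = 3), a log2 fold change of -0.94 (SE 0.10, adjusted p = 1.91e-06), and in DBA/1J the change was -0.72 (SE 0.09, adjusted p = 8.81e-05). Pcdhga11 (-0.61), Pcdhga10 (-0.59), Pcdhga1 (-0.85) and Pcdhgb1 (-0.57) were also among the 10 members with the smallest adjusted p in C57BL/6J, with adjusted p from 2.05e-06 to 0.000105. Of the beta members Pcdhb16 (-0.52) and Pcdhb19 (-0.50) were among those 10. In DBA/1J the first 10 held the alpha member Pcdha5 (-0.73), the gamma members Pcdhga8 (-0.54) and Pcdhga10 (-0.51), and the beta members Pcdhb14 (-0.52), Pcdhb16 (-0.59) and Pcdhb19 (-0.69).

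Over all 24 mice, mutants included, 21 members were lower in the cord than in the brain of every mouse, where 18% of all genes were. No member was higher in every mouse, where 16.8% of all genes were. The 21 were Pcdhgc3, Pcdhgc4 and Pcdhgc5, 9 other gamma members and 9 beta members, with no alpha member. The log2 TPM ratio of Pcdhgc5 ranged from -3.41 to -2.30 between mice. The largest median ratios among the others were those of Pcdhb4 at -0.92 and Pcdhb13 at -0.89. The opposite tendency was seen for Pcdha1, higher in the cord in 20 of 24 mice with a median of 0.32, and Pcdhac1, higher in 19 of 24. Summed by cluster, the cord-to-brain ratio of TPM had a median of 0.867 for alpha, 0.758 for beta and 0.587 for gamma.

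**Figure D2:**
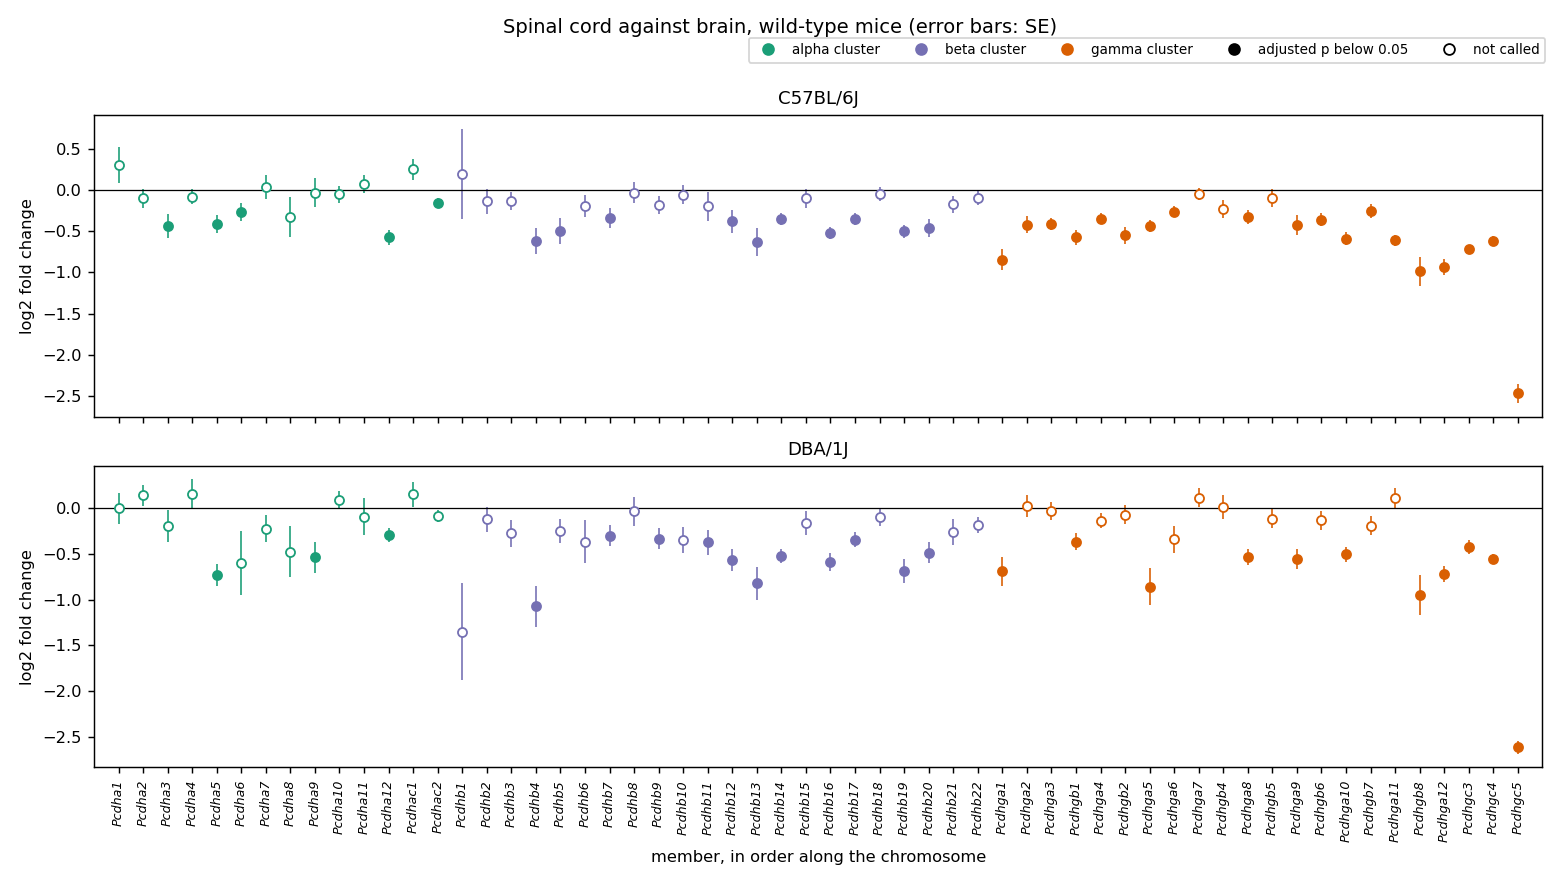
Log2 fold change of spinal cord against brain (SE as error bars) for each member along the chromosome, in wild-type C57BL/6J (top) and DBA/1J (bottom) mice. Filled points passed an adjusted p below 0.05, and Pcdhgc5 lies lowest in both panels at -2.47 and -2.61.

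Cell type markers also moved between cord and brain. All 6 oligodendrocyte genes were higher in the cord in both strains, with a summed level of 20810 to 22680 TPM against 5958 to 6848 TPM in C57BL/6J and 20490 to 23870 TPM against 4898 to 5463 TPM in DBA/1J. Of 7 neuronal genes 4 were higher and 3 lower in both strains, with a sum of 4544 to 4740 TPM in C57BL/6J cord and 3661 to 4385 TPM in brain. Of 6 astrocyte genes 4 were higher in C57BL/6J cord and 5 in DBA/1J cord. All 5 cerebellar genes were lower in C57BL/6J cord, as were the 3 serotonergic genes tested in either strain (9.89 to 10.5 TPM summed against 12.7 to 36.8 TPM in C57BL/6J brain). All 4 choroid plexus genes were lower in the cord of both strains (3.15 to 5.57 TPM summed against 596 to 947.7 TPM in C57BL/6J), as were 3 of 4 meningeal genes in C57BL/6J and 2 in DBA/1J. Of 3 oligodendrocyte precursor genes 2 were higher and 1 lower in C57BL/6J cord (56.8 to 65.1 against 42.7 to 49.1 TPM), and 1 was higher and 1 lower in DBA/1J cord (43.4 to 51.5 against 32.8 to 37.5 TPM). The part of these changes in the protocadherin levels was not tested.

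Cerebellum was compared with cortex in wild-type DBA/1J mice, where the members split. In 57 members tested, 12 were higher in cerebellum and 14 lower, where 28.6% of all genes were higher and 29.5% lower. By cluster, 0 alpha members were higher and 7 lower, 2 beta members were higher and 3 lower, and 10 gamma members were higher and 4 lower. The median log2 fold change was -0.43 for alpha, 0.05 for beta and 0.31 for gamma, against 0.01 for all genes. Pcdhgc5 was at 74.03, 102.9 and 100.9 TPM in cortex and at 7.10, 7.31 and 7.26 TPM in cerebellum, a log2 fold change of -3.46 (SE 0.13, adjusted p = 2.73e-08). Its weighted length in the files also differed, with a median of 3533 bases in cortex and 4605 bases in cerebellum over both genotypes.

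Pcdhgc3 went the other way. It was at 50.2, 43.6 and 40.1 TPM in cortex and 122.4, 136.4 and 128.0 TPM in cerebellum, without overlap, and the log2 fold change was 1.28 (SE 0.11, adjusted p = 7.91e-06). Pcdhgc4 was lower in cerebellum, at 64.9 ± 9.93 TPM against 99.1 ± 10.6 TPM (SD, n = 3), with a change of -0.67 (SE 0.11, adjusted p = 0.000577). Pcdhac1 was also lower, by a log2 fold change of -0.61 (SE 0.12, adjusted p = 0.00188). Pcdhac2 was at 30.6 TPM in cerebellum and 24.9 TPM in cortex, and its log2 fold change of 0.05 was not called (adjusted p = 0.646).

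Of the 10 members with the smallest adjusted p, 4 were Pcdhgb genes, all higher in cerebellum. Pcdhgb7 was at 16.4 ± 1.23 TPM in cerebellum and 7.15 ± 0.693 TPM in cortex (SD, n = 3), a log2 fold change of 0.95 (SE 0.08, adjusted p = 7.37e-06). Pcdhgb2 rose by 0.94 and Pcdhgb6 by 0.75, and Pcdhgb8, low in both tissues at 1.80 and 0.530 TPM, rose by 1.52 (adjusted p from 7.41e-05 to 0.000417 for these 3). The largest decreases outside Pcdhgc5 among the first 10 by adjusted p were those of Pcdha5 at -1.22, Pcdha11 at -1.15 and Pcdhb3 at -1.04. Pcdhb3 was at 4.71 TPM in cortex and 2.71 TPM in cerebellum.

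Including the h5 mice, 19 of the 57 members tested were higher in cerebellum than cortex in 6 of 6 mice, where 43.3% of all genes tested were, and 8 were lower in 6 of 6, where 22.3% were. Pcdhb1, which was not tested because of its low counts, was also lower in 6 of 6. All 4 cortical genes fell and all 5 cerebellar genes rose between these tissues, 5 of 5 microglial genes were lower (37.2 to 41.8 TPM summed against 155.8 to 180.2 TPM), and 4 of 4 meningeal genes were higher. Of 6 astrocyte genes 3 were higher in cerebellum and 1 lower (2567 to 2666 TPM summed against 999.1 to 1301 TPM), and all 3 oligodendrocyte precursor genes were lower (15.9 to 21.1 against 32.7 to 44.5 TPM). Of 7 neuronal genes 2 were higher and 4 lower. The 4 choroid plexus genes were higher in cerebellum, at 2527 to 3672 TPM summed against 19.9 to 868.7 TPM in cortex. Their part in the protocadherin levels was not tested.

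Hippocampus was compared with both other regions, with the same 3 hippocampus libraries in each comparison. Against cerebellum, 13 of 58 members were higher in hippocampus and 23 lower, where 31.8% of all genes were higher and 32.2% lower. Pcdhgc5 was at 79.8, 88.8 and 84.0 TPM in hippocampus and was higher than in cerebellum by a log2 fold change of 3.29 (SE 0.06, adjusted p = 5.38e-12). Pcdhgc3, at 50.4, 49.2 and 49.7 TPM, was lower by -1.20 (SE 0.05, adjusted p = 5.1e-09). Pcdhgc4 was higher by 0.37 and Pcdhac2 lower by -0.32 (adjusted p of 0.00131 and 0.000964), while the difference of Pcdhac1 of -0.15 was not called (adjusted p = 0.354), but passed at -0.31 (adjusted p = 0.0489) without hippocampus replicate 2. The first 10 members by adjusted p also held Pcdhgb7 (-0.83), Pcdhgb8 (-1.66), Pcdhgb2 (-0.71), Pcdhga5 (-0.78) and Pcdhga9 (0.52), the beta members Pcdhb16 (-1.17) and Pcdhb15 (-0.86), and Pcdha4 (0.87). Of the markers, 4 of 6 astrocyte genes were lower in hippocampus (1205 to 1327 TPM summed against 2567 to 2666 TPM), and all 5 microglial and all 3 oligodendrocyte precursor genes were higher (127.8 to 144.7 against 37.2 to 41.8 TPM, and 38.4 to 43.9 against 15.9 to 21.1 TPM). Their part was not tested. In 6 of 6 mice 9 members were higher, where 24.7% of all genes were, and 27 lower, where 41.7% of all genes were.

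Against cortex, 1 of 58 members was higher in hippocampus and 6 lower, where 9.78% of all genes were higher and 10.8% lower. These were Pcdhgb6, at 12.1 against 8.83 TPM with a log2 fold change of 0.40 (adjusted p = 0.0428), and, lower in hippocampus, Pcdhb21 (-0.78), Pcdhac1 (-0.73), Pcdha11 (-0.73), Pcdhb19 (-0.70), Pcdhb15 (-0.63) and Pcdhb17 (-0.47). The count was unstable. It was 14 without DBA/1J cortex replicate 1, 2 without cortex replicate 2, and 2, 4 and 1 on leaving out hippocampus replicates 1, 2 and 3. Without cortex replicate 1, Pcdhgc5 (-0.28, adjusted p = 0.00586), Pcdhac2 (-0.34, adjusted p = 0.00616) and Pcdhgc3 (0.24, adjusted p = 0.0259) passed the threshold. In the full comparison they were at -0.15, -0.24 and 0.10 and not called (adjusted p of 0.429, 0.111 and 0.574), and Pcdhgc4 was at -0.28 (adjusted p = 0.0786). With the mouse as a block Pcdhac2 and Pcdhgc4 passed (adjusted p of 0.0481 and 0.0425), and Pcdhgc4 also passed without cortex replicate 3 (adjusted p = 0.0472). Choroid plexus genes were at 1480 to 6161 TPM summed in hippocampus and 19.9 to 868.7 TPM in cortex, with 3 of 4 called higher, as were 3 of 4 meningeal and 2 of 6 astrocyte genes, while 3 of 7 neuronal and 2 of 5 microglial genes were lower. Their part was not tested. In 6 of 6 mice 5 members were higher, where 20.2% of all genes were, and 11 lower, where 14.6% of all genes were.

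**Figure D3:**
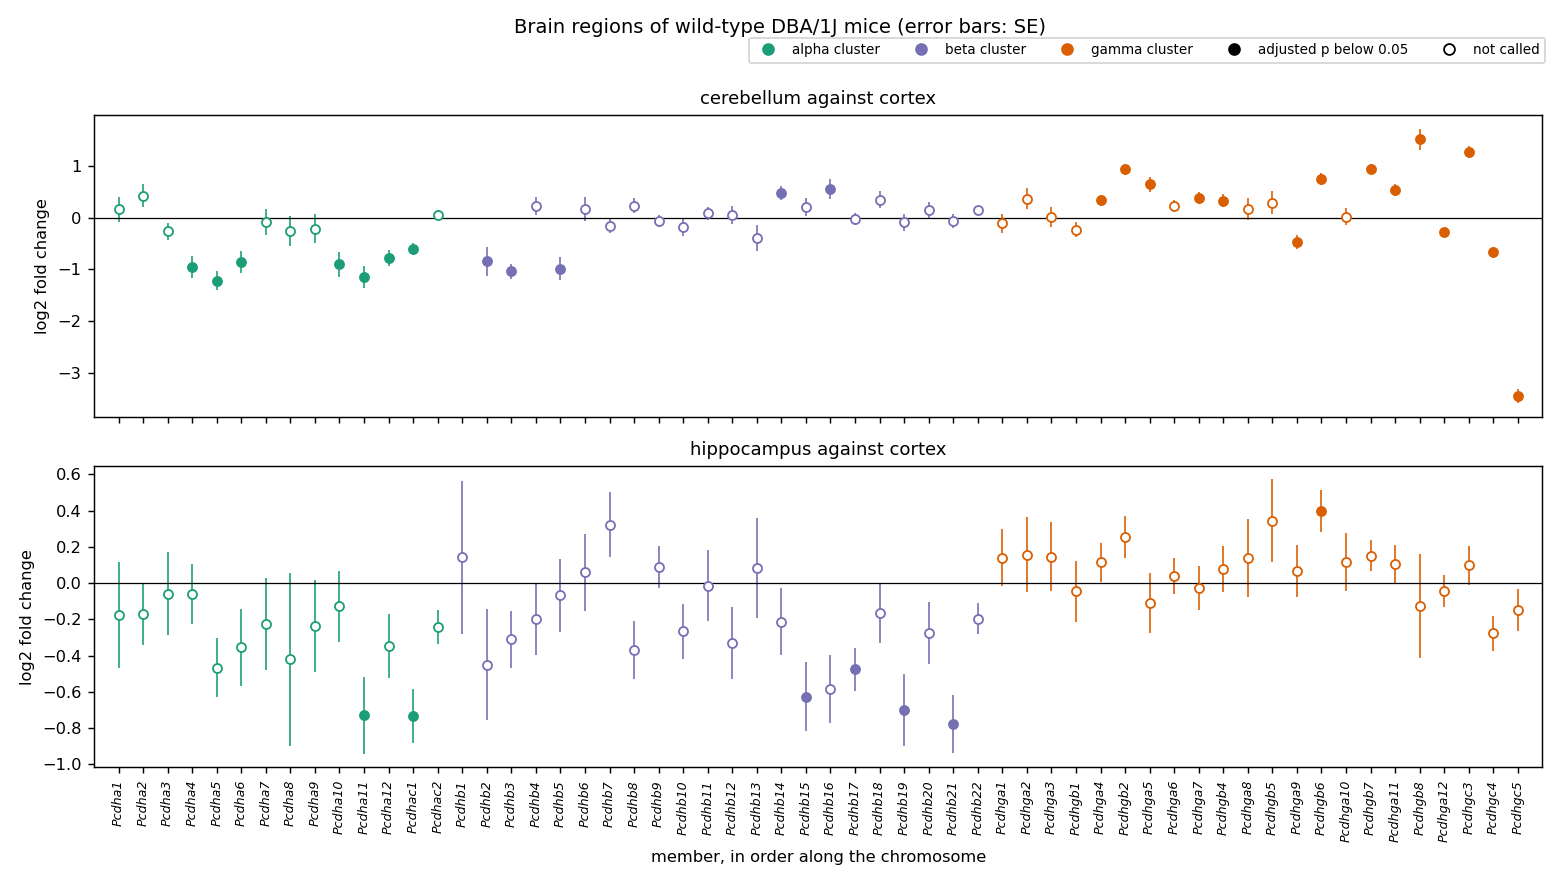
Log2 fold change (SE as error bars) of cerebellum against cortex (top) and hippocampus against cortex (bottom) in wild-type DBA/1J mice for each member along the chromosome. Filled points passed an adjusted p below 0.05. The top panel spans from -3.46 (Pcdhgc5) to 1.52 (Pcdhgb8), and 7 members are filled in the bottom panel.

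In brain the members called between strains were all of the gamma cluster, and in spinal cord they came from all 3 clusters. In brain, 1 of 58 members was higher in DBA/1J than in C57BL/6J and 12 were lower, where 4.04% of all genes were higher and 7.2% lower. In the alpha cluster 0 of 14 were called, with 3 at an unadjusted p below 0.05 and 0 called by DESeq2, and in the beta cluster 0 of 22 were called, with 7 at an unadjusted p below 0.05 and 1 called by DESeq2. Of all genes 24.8% had an unadjusted p below 0.05. The median log2 fold change was -0.36 for gamma, -0.04 for alpha and -0.08 for beta, against 0.01 for all genes. Reads of both strains were assigned to the same reference transcripts, which derive from C57BL/6J, so that a lower level in DBA/1J and fewer DBA/1J reads assigned to this reference cannot be told apart.

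Pcdhga5 showed the largest decrease. It was at 7.55, 8.03 and 7.27 TPM in C57BL/6J brain and at 1.88, 2.60 and 2.12 TPM in DBA/1J brain, with a wide gap between the strains, and the log2 fold change was -1.74 (SE 0.12, adjusted p = 1.34e-05). In spinal cord it was at 4.99, 5.94 and 5.66 TPM in C57BL/6J and 1.38, 1.36 and 0.97 TPM in DBA/1J, a change of -2.17 (SE 0.14, adjusted p = 1.23e-07). Pcdhga3 was at 8.98 ± 0.681 TPM in C57BL/6J brain and 4.42 ± 0.401 TPM in DBA/1J brain (SD, n = 3), a change of -0.97 (SE 0.09, adjusted p = 0.00011). Its change in cord was -0.60 (SE 0.08, adjusted p = 0.000152). Pcdhgb8 was low in both strains, at 2.56 and 0.963 TPM in brain and 1.27 and 0.513 TPM in cord, with changes of -1.36 (SE 0.20, adjusted p = 0.00183) and -1.32 (SE 0.20, adjusted p = 0.000349).

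The other brain members among the first 10 by adjusted p were Pcdhga10 (-0.61), Pcdhga6 (-0.52), Pcdhga7 (-0.54), Pcdhga2 (-0.52), Pcdhga8 (-0.42), Pcdhga11 and the C-type Pcdhgc3. The calls of Pcdhga2 and Pcdhga8 were lost without C57BL/6J replicate 2 (adjusted p of 0.0515 and 0.0521). Pcdhgc3 was at 64.1 ± 4.71 TPM in C57BL/6J and 45.2 ± 4.86 TPM in DBA/1J brain (SD, n = 3), a change of -0.45 (SE 0.09, adjusted p = 0.00969), and -0.38 (adjusted p = 0.00926) without the DBA/1J brain that lacked cerebellar genes. The only increase was that of Pcdhga9, from 6.90 to 8.81 TPM, at 0.48 (SE 0.11, adjusted p = 0.0194), and with a replicate block 0 members were called higher. Pcdhgc4, Pcdhgc5, Pcdhac1 and Pcdhac2 had log2 fold changes of 0.02, -0.12, -0.13 and -0.17 and were not called (adjusted p from 0.172 to 0.874). Pcdhgc5 passed at -0.27 (adjusted p = 0.03) without C57BL/6J replicate 1, its lowest library there. Without the DBA/1J brain that lacked cerebellar genes 12 members were called, and the changes of Pcdhga5 and Pcdhga3 were -1.64 and -0.93. All 3 oligodendrocyte precursor genes were tested in brain and 2 were lower in DBA/1J (32.8 to 37.5 TPM summed against 42.7 to 49.1 TPM), as were 2 of 6 oligodendrocyte genes (4898 to 5463 against 5958 to 6848 TPM). Of 6 astrocyte genes 1 was lower, and their sum was 1277 to 1441 TPM against 1490 to 1718 TPM, without overlap. The part of these in the gamma levels was not tested.

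In spinal cord 3 of 58 members were higher in DBA/1J and 18 lower, where 8.55% of all genes were higher and 12.7% lower. Here 1 alpha member was higher and 2 lower, 1 beta higher and 6 lower, and 1 gamma higher and 10 lower, and with a replicate block 3 beta members were lower. Oligodendrocyte precursor genes were also lower in DBA/1J cord in 2 of 3 cases (43.4 to 51.5 TPM summed against 56.8 to 65.1 TPM), and 2 of 5 microglial genes were higher. Their part was not tested. The increases were Pcdhgb2, from 5.01 to 7.64 TPM with a log2 fold change of 0.63 (SE 0.08, adjusted p = 9.1e-05), Pcdhb2 at 0.48 (adjusted p = 0.0311) and Pcdha4 at 0.40 (adjusted p = 0.0133). Pcdhga8 (-0.64), Pcdhga10 (-0.54), Pcdhga6 (-0.61) and Pcdhga7 (-0.39) were lower, as in brain, and so were Pcdhb19 (-0.53) and Pcdha9 (-0.76), with adjusted p from 0.000245 to 0.00461. Of the C-types Pcdhgc3 fell by 0.17 (adjusted p = 0.0093, and 0.0578 without C57BL/6J replicate 3). Pcdhgc5 fell by 0.27 (adjusted p = 0.0324), a call lost on leaving out replicate 2 or 3 of either strain (adjusted p from 0.0638 to 0.1295). The changes of Pcdhac1 (-0.25), Pcdhac2 (-0.10) and Pcdhgc4 (0.08) were not called (adjusted p of 0.0532, 0.155 and 0.216).

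The mutants of each background gave further libraries in which to read the strain difference. In brain, 9 members were lower in all 6 libraries of the DBA/1J background (wild type and h5) than in any of the 18 of the C57BL/6J background (wild type and h1 to h4), where 3.83% of all genes were, and 0 were higher, where 2.21% of all genes were. The 9 were Pcdhga2, Pcdhga3, Pcdhga4, Pcdhga5, Pcdhga7, Pcdhga8, Pcdhga10, Pcdhga11 and Pcdhgb8. In spinal cord 5 were lower, where 4.63% of all genes were, and 1 was higher, where 3.52% of all genes were. The 5 were Pcdhga3, Pcdhga5, Pcdhga7, Pcdhga8 and Pcdhgb8, all among the 9 of brain, and the 1 was Pcdhb2. Pcdhga5 had a lowest, median and highest value of 6.14, 8.04 and 9.12 TPM in the 18 brains and 1.88, 2.26 and 2.64 TPM in the 6. For Pcdhgb8 these were 1.55, 2.24 and 3.15 TPM against 0.67, 0.915 and 1.09 TPM. Along the chromosome the 9 members run from Pcdhga2 to Pcdhgb8, with Pcdhgb1, Pcdhgb2, Pcdhga6, Pcdhgb4, Pcdhgb5, Pcdhga9, Pcdhgb6 and Pcdhgb7, which overlapped between the backgrounds, among them.

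**Figure D4:**
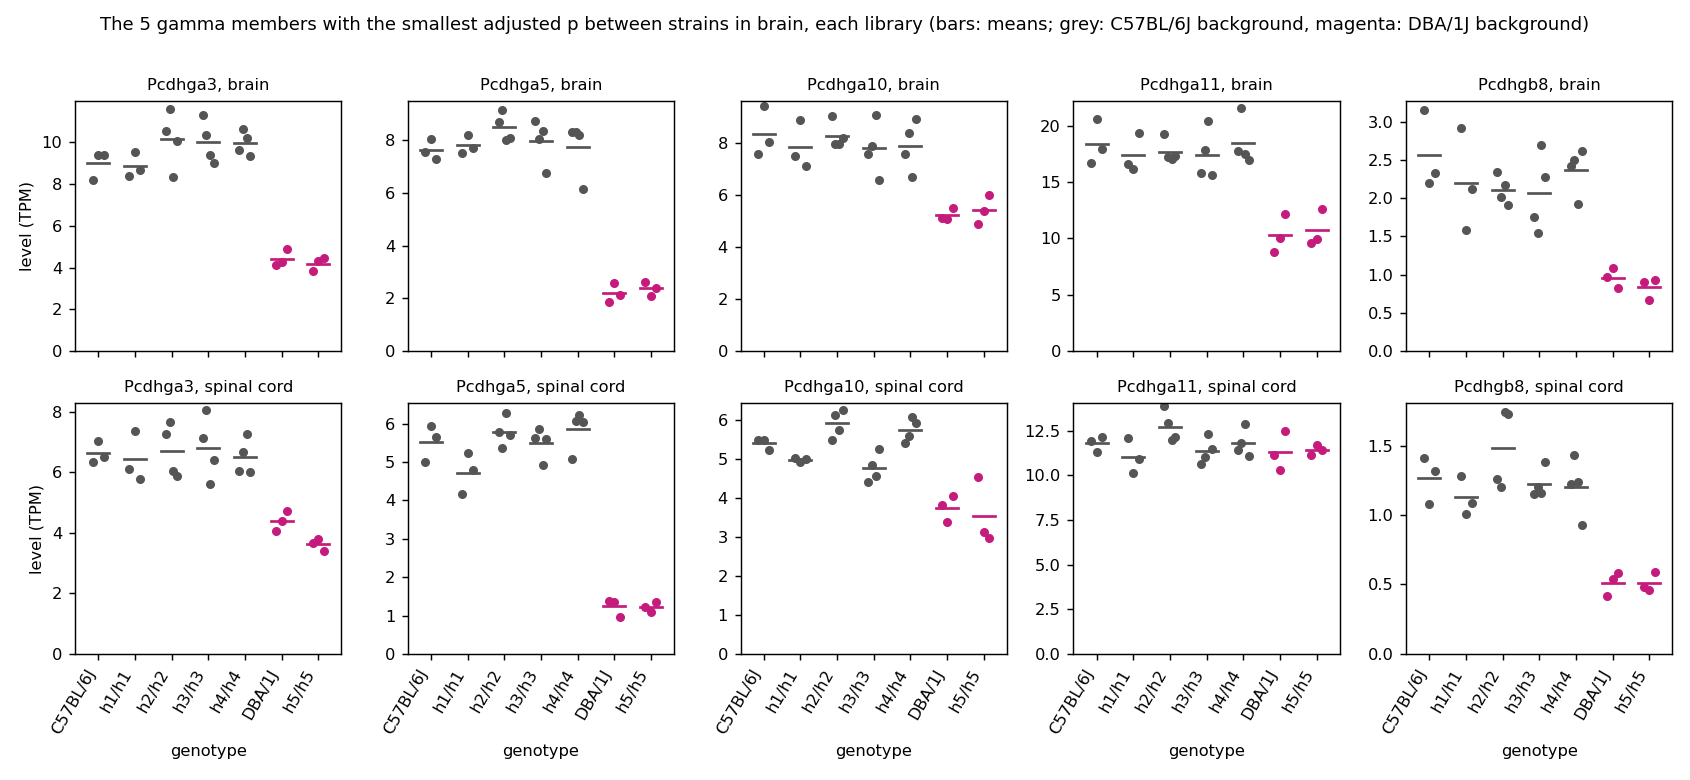
Level (TPM) in each library by genotype of Pcdhga3, Pcdhga5, Pcdhga10, Pcdhga11 and Pcdhgb8 in brain (top) and spinal cord (bottom), grey for the C57BL/6J background and magenta for the DBA/1J background, with means as bars. Pcdhga5 stays at or below 2.64 TPM in the DBA/1J background and at or above 4.16 TPM in the other, while Pcdhga10 and Pcdhga11 separate in brain only.

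The strain difference itself differed between tissues for 1 member, Pcdhga11, where 0.321% of all genes passed the interaction of strain and tissue. It was at 16.7, 20.6 and 17.9 TPM in C57BL/6J brain and 8.78, 10.02 and 12.1 TPM in DBA/1J brain, and at 11.9, 11.3 and 12.2 TPM against 11.2, 10.3 and 12.5 TPM in cord. The strains were apart in brain and overlapped in cord. The interaction was 0.71 on the log2 scale (SE 0.13, adjusted p = 0.0425), and it did not pass on leaving out any 1 mouse other than DBA/1J replicate 3 (adjusted p from 0.0723 to 0.293), among them DBA/1J replicate 1, whose brain lacked cerebellar genes (0.62, adjusted p = 0.0723). In the brain comparison alone Pcdhga11 changed by -0.78 (SE 0.11, adjusted p = 0.0016).

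Mutants of each Rorb allele were compared with wild-type C57BL/6J (h1 to h4) or DBA/1J (h5) mice, and few members were called, in comparisons that called few genes in all. Rorb itself was not called in h1 brain (-0.60, adjusted p = 0.0838) or in any h5 tissue (0.24 to 0.72, adjusted p from 0.0806 to 0.392), so that a count of 0 there does not show that members were unchanged. The 4 comparisons of h1 to h4 in a tissue share the same 3 C57BL/6J controls, and their values are given side by side. In brain 0 members were called for h1, h2, h3, h4 or h5, where 0% of all genes passed for h1, 0.136% for h2, 0.164% for h3, 0.703% for h4 and 0% for h5. At an unadjusted p below 0.05 there were 3, 11, 5, 7 and 4 members (5.26%, 19.3%, 8.62%, 12.1% and 6.90% of those tested). Of all genes 4.23%, 7.45%, 10.4%, 13.2% and 5.80% had such a p. DESeq2 called 0, 0, 0, 3 and 0 members. For h4 the fit with the replicate number as a block, in which same-numbered mice also share the labelled sex, called 2 members, both higher. Pcdhgc4 in brain had log2 fold changes of 0.08 (SE 0.09), 0.04 (SE 0.09), 0.13 (SE 0.06), -0.04 (SE 0.09) and -0.00 (SE 0.11) for h1 to h5.

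In spinal cord Pcdhgc4 was higher than in the C57BL/6J controls at 2 alleles. It was at 45.7, 46.4 and 42.4 TPM in the controls, at 57.6, 55.1 and 53.0 TPM in h1, and at 54.1, 53.1, 58.1 and 48.3 TPM in h2. The h3 values were 45.8, 55.7, 52.1 and 57.7 TPM, and the h4 values 47.0, 54.4, 53.9 and 57.2 TPM. No value of h1, h2 or h4 reached down to the controls, and 1 of h3 did. The weighted length of Pcdhgc4 in cord ran from 2789 to 3134 bases, and these levels too rest in part on the division of shared reads. The log2 fold change was 0.27 for h1 (SE 0.04, adjusted p = 0.0124) and 0.20 for h2 (SE 0.05, adjusted p = 0.0343). It was 0.21 for h3 (SE 0.06, adjusted p = 0.116) and 0.18 for h4 (SE 0.05, adjusted p = 0.1), neither called, and for h5 against DBA/1J it was -0.08 (SE 0.05, adjusted p = 0.677). In 1 fit over all spinal cord groups the h1 and h2 calls were lost (adjusted p of 0.128 and 0.123). The h1 call was lost without C57BL/6J replicate 1 or h1 replicate 1 (adjusted p of 0.103 and 0.133), and the h2 call without C57BL/6J replicate 1 or 3 or h2 replicate 1, 2 or 3 (adjusted p from 0.0783 to 0.117).

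Marker sums differed in the same cords. Serotonergic genes were at 9.89 to 10.5 TPM summed in the controls, 11.4 to 12.1 TPM in h1 and 12.2 to 14.0 TPM in h2, and neuronal genes at 4544 to 4740 TPM, 4141 to 4368 TPM and 4308 to 4502 TPM, without overlap with the controls. In h1 the sums of endothelial genes (68.0 to 78.9 against 80.5 to 83.5 TPM) and of hippocampal genes (75.7 to 79.6 against 83.7 to 89.6 TPM) also lay below the controls. By edgeR's test 1 of 7 neuronal genes was lower and 1 of 2 serotonergic genes tested higher in h2. Their part in the Pcdhgc4 levels was not tested.

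These calls stand against 0.289% of all genes called for h1 in spinal cord, 2.09% for h2, 1.01% for h3, 1.75% for h4 and 0.00581% for h5. For h2 the alpha member Pcdha10 was also lower, at 1.67, 2.11, 2.78 and 1.64 TPM against 3.34, 2.91 and 2.99 TPM (log2 fold change -0.60, SE 0.15, adjusted p = 0.0456), and Pcdhgb2 was higher at 6.18 against 5.01 TPM (0.31, SE 0.08, adjusted p = 0.0472). Both lay close to the threshold. Pcdha10 did not pass on leaving out any library other than h2 replicate 3 (adjusted p from 0.0661 to 0.25), nor did Pcdhgb2 without C57BL/6J replicate 1 or 2 or h2 replicate 1 or 2 (adjusted p from 0.134 to 0.2385), in 1 fit of all groups (adjusted p = 0.118) or with sex as a covariate (adjusted p = 0.0564). With the replicate number as a block, which does not pair h2 mice, neither passed (adjusted p of 0.0975 and 0.0874). For h3, h4 and h5 in cord 0 members were called, and DESeq2 called 2, 2 and 0. At an unadjusted p below 0.05 there were 10, 16 and 6 (17.2%, 27.6% and 10.5% of those tested). Of all genes 13.6%, 14.0% and 8.90% had such a p. The 16 of h4 were 8 gamma members, all higher, and 2 alpha and 6 beta members, all lower. Summed by cluster, beta members were at 72.98 to 78.01 TPM in the 3 control cords, which the 4 alleles share, at 62.4 to 67.7 TPM in h1, 65.9 to 75.04 TPM in h2, 58.3 to 70.9 TPM in h3 and 64.4 to 69.03 TPM in h4, so that h2 overlapped the controls. Gamma sums were at 194.0 to 201.5 TPM in the controls. They were at 198.6 to 204.9 in h1, 209.0 to 222.4 in h2, 199.0 to 220.8 in h3 and 201.5 to 222.4 TPM in h4. Alpha sums were at 56.09 to 59.44 TPM in the controls. They were at 53.01 to 54.71 in h1, 55.54 to 57.09 in h2, 52.97 to 61.37 in h3 and 53.52 to 55.35 TPM in h4. The sums of the 3 clusters were not tested.

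In the dissected regions of h5 mice 0 members were called in cortex, hippocampus or cerebellum, where 0%, 0.0118% and 0.012% of all genes passed. At an unadjusted p below 0.05 there were 7, 3 and 2 members, all higher in h5 (12.1%, 5.17% and 3.51% of those tested). Of all genes 6.42%, 4.22% and 5.62% had such a p in either direction. DESeq2 called 0 members in each. Pcdhgc5 was at 117.6 ± 6.63 TPM in h5 cortex and 92.6 ± 16.1 TPM in DBA/1J cortex (SD, n = 3), a log2 fold change of 0.29 (SE 0.12, adjusted p = 0.764). Pcdhgc3 was at 58.2 ± 3.66 TPM in h5 hippocampus and 49.8 ± 0.627 TPM in DBA/1J (0.19, SE 0.05, adjusted p = 0.899). In cortex the control replicate 1 was the lowest of its 3 libraries for most members (74.03 TPM of Pcdhgc5 against 102.9 and 100.9 TPM). It had the highest sums of oligodendrocyte (5015 against 4263 and 3442 TPM), astrocyte (1301 against 1059 and 999.1 TPM), oligodendrocyte precursor, microglial and endothelial genes. Its neuronal (4360 against 5099 and 4725 TPM) and meningeal sums were the lowest. The part of this library in the h5 differences was not tested. The 3 h5 libraries of replicate 3, with the departing sex label, are part of these groups, and 0 members were called on leaving out any single library.

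**Figure D5:**
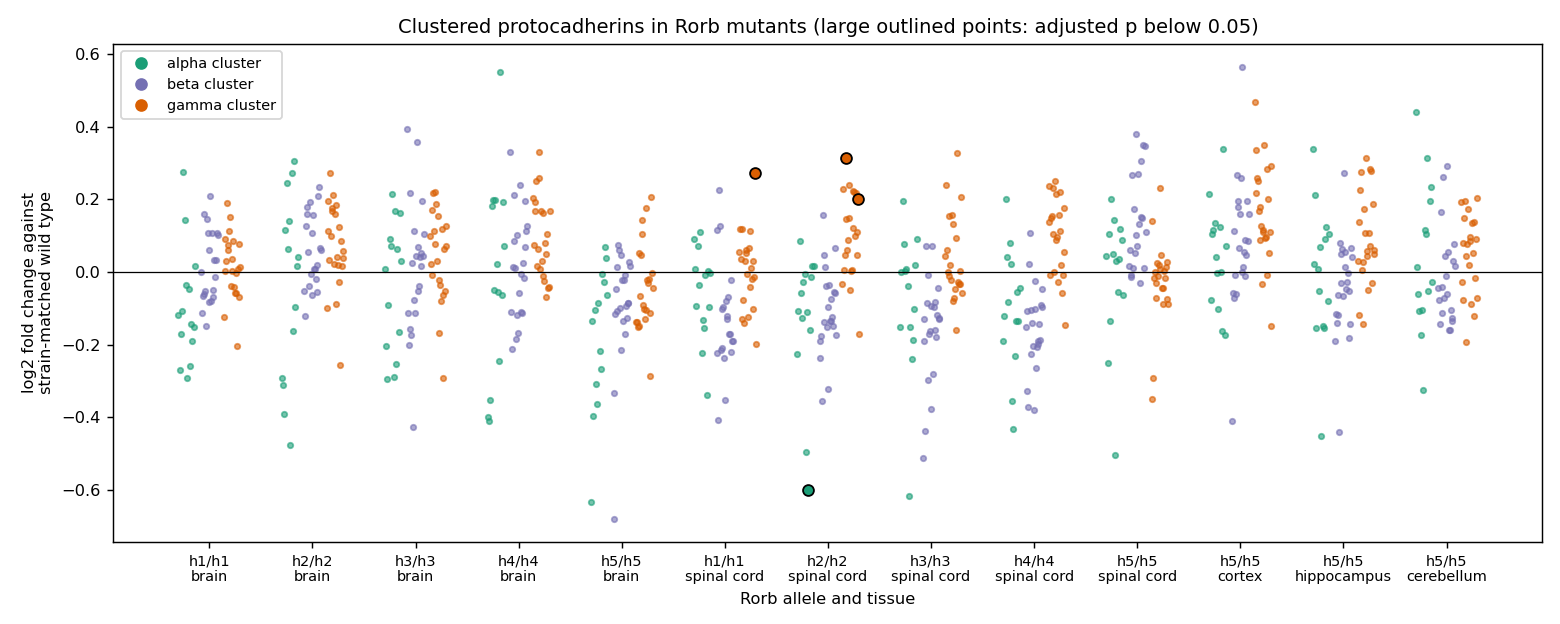
Log2 fold change of each member in each Rorb mutant against wild-type C57BL/6J (h1 to h4) or DBA/1J (h5) mice, by allele and tissue and coloured by cluster. Large outlined points passed an adjusted p below 0.05: Pcdhgc4 in h1 and h2 spinal cord, and Pcdha10 and Pcdhgb2 in h2 spinal cord.

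Genes that act with or lie beside the clusters were read from lists. Of 20 regulators of protocadherin promoters, which hold the insulator protein CTCF, the cohesin subunits and loaders, DNA methyltransferases and SETDB1 with its partners, 19 were higher in cerebellum than cortex and 0 lower, with a median log2 fold change of 0.59, where 28.6% of all genes were higher and 29.5% lower. Stag1 (0.76), Smc3 (0.68) and Smc1a (0.63), subunits of cohesin, and the zinc finger gene Wiz (0.65) had the smallest adjusted p, from 1.19e-05 to 5.97e-05. Against brain, 15 were lower in C57BL/6J cord and 9 in DBA/1J cord, where 28.5% and 25.6% of all genes were. Between strains 1 was lower in brain (Stag1, -0.22), where 7.2% of all genes were, and in cord 1 was higher (Trim28, 0.22) and 1 lower (Stag2, -0.16), where 8.55% and 12.7% were.

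Of 17 signalling and processing partners, such as the kinases that gamma and alpha proteins inhibit and the WAVE complex bound by alpha constant domains, 4 were higher and 10 lower in cerebellum than cortex, beside the same 28.6% and 29.5% of all genes. Ptk2b, the kinase PYK2, was lower by -7.06 (SE 0.18, adjusted p = 3.04e-09) and Ret, a receptor kinase found with protocadherins, higher by 3.098 (SE 0.10, adjusted p = 8.8e-09). The WAVE gene Wasf1 fell by 1.42. In C57BL/6J cord against brain these 3 genes changed by -5.40, 2.23 and -1.48, where 3 of the 17 were higher and 9 lower, against 28.3% and 28.5% of all genes. Between strains Ret was higher in DBA/1J brain (0.46, adjusted p = 0.0296) and Ptk2, the focal adhesion kinase, lower (-0.28, adjusted p = 0.0187), 1 each of the 17, where 4.04% and 7.2% of all genes were.

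The 12 protocadherins outside the clusters, which lie at other loci, are adhesion proteins too. In cerebellum against cortex, with 28.6% of all genes higher and 29.5% lower, 1 was higher and 10 lower, with a median log2 fold change of -2.08, among them Pcdh10 (-2.78), Pcdh15 (-2.58), Pcdh11x (-2.99) and Pcdh8 (-4.09), against 0.02 for the clustered members. In C57BL/6J cord against brain 6 were higher and 5 lower, against the same 28.3% and 28.5%, with Pcdh1 at -1.32 and Pcdh20 at -1.48. Of 15 neighbours on the chromosome, 6 were higher and 5 lower in cerebellum against cortex, again with 28.6% and 29.5% of all genes. Taf7, which lies between the beta and gamma clusters, was higher there by 0.96 (SE 0.12, adjusted p = 0.000102) and in cord against brain by 0.30 in C57BL/6J and 0.52 in DBA/1J (adjusted p of 0.021 and 0.00522). Its strain differences of 0.01 in brain and 0.23 in cord were not called (adjusted p of 0.964 and 0.122). Slc25a2, the other gene there, was lower in hippocampus than cerebellum by -1.36 (adjusted p = 0.0332).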

How the data were processed

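Poly(A) RNA was sequenced in paired ends by the authors, who trimmed the reads with Trim Galore, aligned them with STAR and quantified genes with RSEM on GRCm38 for both strains. The annotation release was not given in the sources used here. For each library the authors deposited RSEM expected counts, which divide reads that fit several transcripts, and TPM per gene, with weighted transcript lengths. Expected counts were rounded, genes of low count were removed with filterByExpr, and libraries were scaled by TMM in edgeR 4.0.16 (R 4.3.3). A quasi-likelihood test with Benjamini-Hochberg adjustment over all genes was fitted to the 2 groups of each of 20 comparisons, and to the 4 wild-type groups of brain and cord for the interaction of strain and tissue. An adjusted p below 0.05 was a call. DESeq2 1.42.0 was an alternative, beside its size factors in edgeR, no filter, a replicate block, sex as a covariate, 1 fit per tissue, and each library left out. The gamma C-type share without Pcdhgc4 and the ranges over all libraries of a strain background were added after seeing the data.

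Coordinates came from RefSeq on GRCm38, and transcript lengths and shared bases from a later GENCODE annotation. Symbols were paired with identifiers for 41407 of 45706. Sequences of members are not printed. The fits were tested on simulated data. No pair of the 78 pairs of replicates held identical values. Replicates of a group were separate mice. Same-numbered brain and spinal cord, or regions, came from the same mouse, and for h1 and h4 against C57BL/6J same-numbered mice deviated together in brain and in cord (every r above 0.1, from 0.145 to 0.569). Replicates 1 to 3 were labelled female, female and male in C57BL/6J, h1 and h4, and male, male and female in h3 and DBA/1J. For h3 and DBA/1J against C57BL/6J every r lay between -0.477 and -0.0181. Shared deviations of same-numbered mice therefore cannot be told apart from sex. Named were the C-types, the 3 highest and the lowest members of each cluster in a tissue, and up to 10 called members per comparison by adjusted p. The members and lists were chosen with earlier results of these data known, and the gene lists hold no independent support.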

Additional observations from a re-analysis of the deposited data

Results flagged for a closer look

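A few libraries lay far from the others of their group by Dixon's test, applied to 78 sets of 4 libraries, of which 6 passed. Chance passes about 1 in 20 of such sets. Pcdhac2 in brain of h2 replicate 4 was at 22.3 TPM, against 23.9 to 24.2 TPM in the other 3. Pcdhga5 was at 6.14 TPM in brain of h4 replicate 4 against 8.19 to 8.29 TPM, and at 5.08 TPM in spinal cord of h4 replicate 1 against 6.04 to 6.23 TPM. Pcdhga11 in brain of h2 replicate 1 was at 19.2 TPM, against 17.0 to 17.3 TPM. The summed TPM of the alpha cluster was 57.3 in brain of h3 replicate 4 against 66.7 to 68.3, and that of the beta cluster was 58.3 in spinal cord of h3 replicate 4 against 69.3 to 70.9.

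The strain difference of Pcdhga11 differed between brain and spinal cord, with an interaction of 0.71 on the log2 scale (edgeR's quasi-likelihood test, adjusted p = 0.0425). It did not pass on leaving out any 1 mouse other than DBA/1J replicate 3 (adjusted p from 0.0723 to 0.293).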

How the results depend on the processing

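The total counts of called members between tissues and strains stayed within 1.5 times of their values under the alternatives that kept all libraries, while the counts for the alleles, which are small, moved. In spinal cord, 1 fit of all groups gave 0 for h1, 1 for h2 and 1 for h3. DESeq2 gave 4 for h2, 2 for h3, 2 for h4 and, in brain, 3 for h4. No low-count filter gave 4 for h2, 2 for h3 and 3 for h4 in cord and 2 for h4 in brain. The replicate block gave 1 for h2 and 1 for h3 in cord and 2 for h4 in brain, and sex as a covariate 1 for h4 in brain. The block, which does not pair h2 and h3 with their controls, moved no other total by over 1.5 times. By direction and cluster it took brain members higher in DBA/1J from 1 to 0, beta members lower in DBA/1J cord from 6 to 3, alpha members lower in hippocampus against cortex from 2 to 4 and gamma members there from 0 to 1, and alpha members higher in C57BL/6J cord against brain from 0 to 1. The cause of these moves was not tested.

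Leaving out each library in turn gave 19 to 29 calls in cerebellum against cortex, 28 to 36 in hippocampus against cerebellum, 1 to 14 in hippocampus against cortex, 27 to 33 and 22 to 28 in cord against brain in C57BL/6J and DBA/1J, 9 to 15 and 14 to 21 between strains in brain and cord, and 0 to 1 for the interaction. For alleles it gave 0 to 1 for h1, 0 to 2 for h2, 0 to 1 for h3 and 0 to 2 for h4 in cord, 0 to 1 for h4 in brain, and 0 to 0 elsewhere. The direction of 3 uncalled values turned on leaving out a library: Pcdhac2 in cerebellum against cortex ranged from -0.044 (without cortex replicate 1) to 0.12, and between strains in brain Pcdhac1 from -0.23 to 0.036 (above 0 without C57BL/6J replicate 3, and at 0.0017 without DBA/1J replicate 3) and Pcdhgc4 from -0.052 (without C57BL/6J replicate 3) to 0.068. With a replicate block Pcdhga8 between strains in brain had an adjusted p of 0.051 and Pcdhgc5 in cord 0.0717, where numbers do not pair mice, and in hippocampus against cortex Pcdhac2 and Pcdhgc4 passed at 0.0481 and 0.0425. Shares by expected count in place of TPM put gamma at 61.9% in DBA/1J brain and 56.8% in cord, and the C-type share of gamma at 54.5% and 43.1%, since counts grow with transcript length. Some orders turned by count. Gamma was at 63.2% in DBA/1J cortex and 66.1% in cerebellum (68.9% and 68.5% by TPM). The C-type share without Pcdhgc4 was 44.4% in DBA/1J brain and 45.5% in cerebellum (48.1% and 45.7% by TPM). Members had 2 to 12480 expected counts per library, and small differences of the lowest, such as Pcdhb1, are not detectable at this depth.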
